A study of Mus musculus with 10 samples.

Results

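RNA depleted of ribosomal RNA was sequenced from Neuro-2a cells, a mouse neuroblastoma line, in which Sfpq had been knocked down. It was available as 2 libraries of the 10 samples in the series: 1 from cells given an siRNA against Sfpq and 1 from control cells given an siRNA against luciferase (Luc), a gene absent from mouse cells. In both groups Stealth siRNA was delivered by reverse transfection with RNAiMAX, in a differentiation medium with 2% serum, and the cells are labelled with the strain C57BL/6+C57BL/6J+CBA. The time between transfection and harvest is not given in the sources used here. Another 6 libraries, 3 Luc and 3 Sfpq, were made from poly(A)-selected RNA of the same line and treatment, and serve as the reference for what poly(A) selection shows. With 1 library per group nothing could be tested, and every ratio describes these 2 libraries only.

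The libraries were chosen by their titles. Each lists 30978 RefSeq transcript records (rows) in RPKM, a read count scaled to transcript length and library size. Of these, 27362 carry an NM accession (a protein-coding transcript) and 3616 an NR accession (a noncoding transcript, which includes noncoding isoforms of coding genes). Rows were kept where the mean of both libraries reached 0.5 RPKM, which left 15510 NM and 776 NR rows, or 11390 genes. Ratios are log2((Sfpq + 0.5)/(Luc + 0.5)), where 0.5 RPKM is a pseudocount that shrinks the ratios of low rows, and a row was called higher or lower where it passed 2-fold.

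The libraries were of like depth. RPKM times the known length of miRNA hairpins fell on whole multiples of 1 step, within 0.02 of a read, for 108 of 109 Luc values and 99 of 99 Sfpq values under 50 reads, and the step corresponds to 63.8 M (mega) reads for Luc and 64.2 M reads for Sfpq. At that depth a transcript of 1 kb at 0.5 RPKM holds 31.9 reads. Of 20 markers of sympathetic neuroblasts, 18 passed the filter, led by Tubb3 at 423 RPKM in the Luc and 396 RPKM in the Sfpq library. Of 28 markers of other cell types, 4 passed. Their summed level was 6.90 RPKM in the Luc and 4.08 RPKM in the Sfpq library, and 6 markers were listed at 0 in both.

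Sfpq is a nuclear protein of the DBHS family that binds RNA and DNA, with Nono and Pspc1 as its relatives, and it takes part in transcription, RNA processing and the nuclear bodies called paraspeckles. Most mRNAs and many long noncoding RNAs end in a poly(A) tail. The mRNAs of replication-dependent histones end in a stem-loop instead, and the RNAs of RNase P, RNase MRP and telomerase, the small nucleolar RNAs (snoRNAs) and the miRNA precursors carry no stable tail, so poly(A) selection discards most of them while rRNA depletion keeps them.

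Sfpq itself was low in the Sfpq library in both of its rows. The noncoding row was at 30.8 RPKM in the Luc and 4.43 RPKM in the Sfpq library, which left 14.4%, and the coding row was at 28.5 and 4.98 RPKM, which left 17.5%. The labels' protocol puts the remaining Sfpq mRNA under 10%, with no method named beside it. In poly(A) RNA the noncoding row was at 63.5 ± 8.42 RPKM in Luc and 5.07 ± 1.27 RPKM in Sfpq (SD, n = 3). The coding row was at 48.0 ± 8.33 and 4.17 ± 1.01 RPKM there. Pspc1 was at 16.9 RPKM in the Luc and 38.5 RPKM in the Sfpq library, a log2 ratio of 1.17. Nono was at 43.5 and 59.1 RPKM, a log2 ratio of 0.44, which is inside the 2-fold limit. Neat1, the RNA scaffold of paraspeckles, was at 6.71 and 6.05 RPKM, a log2 ratio of -0.14, while its poly(A) mean was 7.85 ± 1.21 RPKM in Luc and 4.41 ± 1.83 RPKM in Sfpq (SD, n = 3). Malat1, a nuclear noncoding RNA of nuclear speckles whose 3′ end is a triple helix, was at 75.3 RPKM in the Luc and 80.9 RPKM in the Sfpq library. The same row was at 15.5 ± 2.16 RPKM in poly(A) Luc and 12.6 ± 4.52 RPKM in poly(A) Sfpq (SD, n = 3). Among 20 genes of paraspeckles and their partners, Pspc1 was higher and Sfpq lower by 2-fold, and the median log2 ratio was 0.05.

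Coding rows were more often lower than higher, and noncoding rows were not. Of the 15510 NM rows, 221 (1.42%) were higher and 841 (5.42%) lower by 2-fold in the Sfpq library, with a median log2 ratio of -0.03. Of the 776 NR rows, 29 (3.74%) were higher and 22 (2.84%) lower, with a median of 0.05. With 1 row per gene, 187 genes (1.64%) were higher and 590 (5.18%) lower. The nearest measure of error comes from the poly(A) libraries of 1 group. Between pairs of the 3 Luc poly(A) libraries, from 0.00652% to 0.982% of NM rows and from 0.307% to 4.41% of NR rows differed by 2-fold, against 6.85% of NM and 6.57% of NR rows between the rRNA-depleted Sfpq and Luc libraries. The higher Luc shares came from pairs with the third Luc library. Between pairs of the 3 Sfpq poly(A) libraries, from 0% to 0.0590% of NM rows and from 0.302% to 1.97% of NR rows differed by 2-fold. All of these shares were below those of the rRNA-depleted pair, but the rows differ. Each poly(A) pair was counted over rows with a pair mean of at least 0.5 RPKM. These were 649 to 663 NR rows, against 776 for the rRNA-depleted pair. Rows near the floor in poly(A) RNA therefore have no such measure of error.

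**Figure D1:**
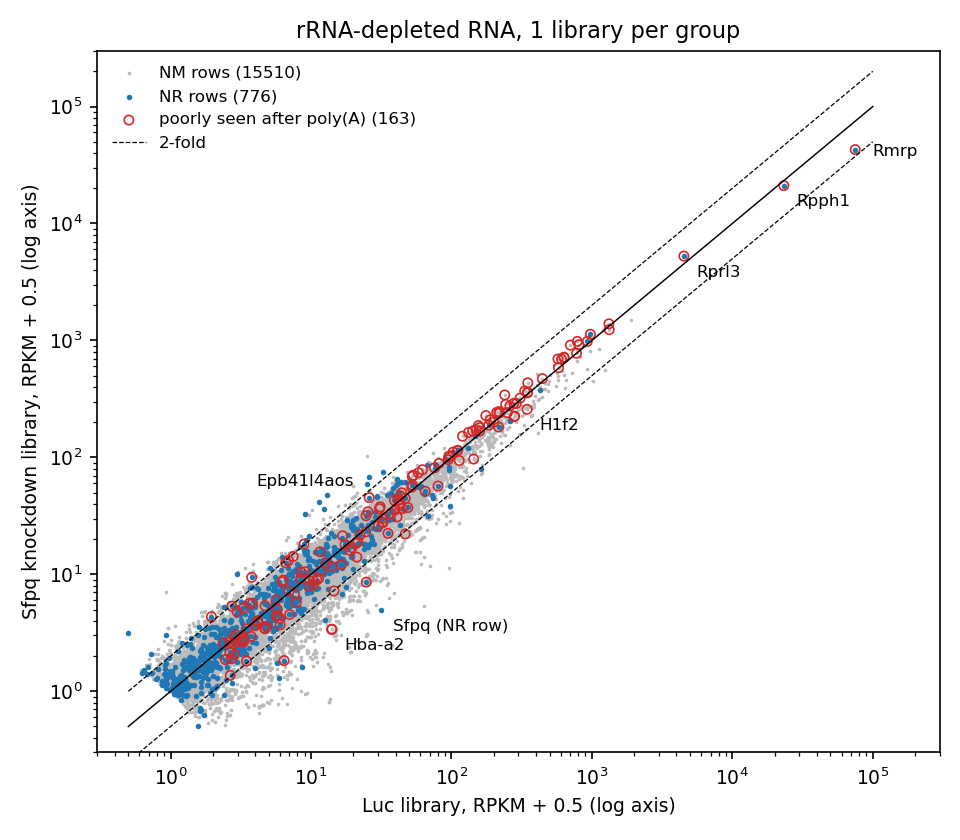
Each point is a RefSeq row, with RPKM + 0.5 on log axes, the Luc library on the horizontal and the Sfpq library on the vertical one, NM rows in grey, NR rows in blue and rows poorly seen after poly(A) selection ringed in red. The solid line marks equal values and the dashed lines 2-fold; Rmrp at 75042 and 42836 RPKM lies below the line of equal values and most ringed rows lie along it.

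Among rows with a mean of at least 5 RPKM, the lowest coding rows included genes of synapses, membranes and mitochondria. Slc39a11, a zinc transporter of the ZIP family, was at 13.0 RPKM in the Luc and 0.307 RPKM in the Sfpq library, a log2 ratio of -4.07. Ergic1, a membrane protein between the endoplasmic reticulum and the Golgi, was at 37.0 and 1.98 RPKM, a log2 ratio of -3.91. Vat1l was at 63.3 and 4.86 RPKM, a log2 ratio of -3.57. Syt1, the calcium sensor of synaptic vesicles, was at 18.7 and 1.68 RPKM, and Syn2, a synapsin that tethers such vesicles, was at 13.4 and 0.981 RPKM. Nmnat2, an enzyme of NAD synthesis in axons, was at 13.1 RPKM in the Luc and 1.11 RPKM in the Sfpq library. Cadm1, a cell adhesion molecule, was at 24.7 and 2.56 RPKM, and Ndufc1, a subunit of respiratory complex I, was at 95.1 and 10.7 RPKM. The remaining rows among the lowest 10 were 3110082I17Rik and Niban1, with log2 ratios of -4.01 and -2.96.

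The highest coding rows at that level reached smaller ratios. The row NM_001081005, which has no name in the gene table used, was at 24.4 RPKM in the Luc and 102.5 RPKM in the Sfpq library, a log2 ratio of 2.05. Taf1d, a subunit of a promoter factor of RNA polymerase I whose introns hold snoRNAs, was at 9.72 and 35.2 RPKM, a log2 ratio of 1.81. Mmp15, a membrane-type metalloproteinase, was at 2.53 and 9.87 RPKM, and Adam9, another metalloprotease, was at 19.5 and 56.3 RPKM. Ro60, which binds small noncoding Y RNAs, was at 3.33 RPKM in the Luc and 11.8 RPKM in the Sfpq library. Pan2, the catalytic subunit of a deadenylase that shortens poly(A) tails, was at 4.3997 and 12.2 RPKM. Mgarp, Uhmk1, Mcam and Smim1 had log2 ratios between 1.47 and 1.76.

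Long neuronal genes were low together in rRNA-depleted RNA. Of 98 on the list, 43 passed the filter. Of these, 21 (48.8%) were lower by 2-fold, against 5.18% of all genes, and 0 higher. The median log2 ratio was -0.02 over all genes and -0.86 over the list. That median was -1.33 with a pseudocount of 0.1 RPKM and -0.49 with no filter. Rgs7, a regulator of G-protein signalling, was at 8.82 RPKM in the Luc and 0.459 RPKM in the Sfpq library. Ncam1, the neural cell adhesion molecule, was at 38.3 and 6.38 RPKM. Short neuronal genes had a median of -0.39 over 45 that passed, or -0.25 with no filter, with 6 (13.3%) lower and 1 (2.22%) higher. The lower ones included Vgf, a secreted neuropeptide precursor, at 325 and 81.1 RPKM, and Cplx1, a regulator of vesicle fusion, at 32.1 and 8.81 RPKM.

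Other lists of coding genes are given next, beside the 1.64% of all genes that were higher and the 5.18% that were lower by 2-fold. Of 39 stress genes, from the integrated stress response and that to unfolded proteins, 4 were lower and 0 higher, with a median log2 ratio of -0.38; Nupr1, a stress-induced chromatin protein, was at 66.6 RPKM in the Luc and 23.6 RPKM in the Sfpq library. Of 61 listed subunits of oxidative phosphorylation, 0 passed 2-fold in either direction, yet 52 were below zero and the median was -0.26. The complex I subunit Ndufc1, named above with a log2 ratio of -3.09, was not on that list. Of 34 interferon response genes, 6 were higher and 1 lower, with a median of 0.28, or 0.17 at a mean of at least 2 RPKM, and most of these were of low level: Parp9 was at 1.98 and 6.47 RPKM and Rsad2, an antiviral enzyme, at 1.64 and 4.75 RPKM. Of 54 cell cycle genes, 1 (1.85%) was higher, near the share over all genes, and 0 lower, with a median of 0.21. That gene was Rbl1, a relative of the retinoblastoma protein, at 2.52 and 6.43 RPKM. Of the 18 neuroblast markers that passed, 6 were lower and 0 higher by 2-fold, 6 were above zero, and the median was -0.40. Mycn, a transcription factor often amplified in neuroblastoma, was at 10.5 and 3.37 RPKM, while Chga, a protein of secretory granules, was at 36.04 and 49.4 RPKM. In bulk RNA, fewer cells of a type and less RNA per cell cannot be told apart. The transcription elongation list had a median of 0.12 with 0 of 38 genes past 2-fold.

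The ratio of coding rows depended on their level. In bins of the Luc library's own RPKM, the median log2 ratio of NM rows was 0.59 under 0.5 RPKM (165 rows), 0.17 from 0.5 to 1, 0.05 from 1 to 5, -0.04 from 5 to 20, -0.18 from 20 to 100 and -0.25 at 100 RPKM and over (352 rows). The Luc level is also the denominator of the ratio, so a low value there makes a high ratio by construction. By the mean of both libraries the medians of NM rows were -0.01 from 0.5 to 1 RPKM, 0.02, -0.02, -0.10 and -0.21 at 100 RPKM and over. By the mean of the poly(A) Luc libraries, which share no library with the ratio, they were 0.35 under 0.5 RPKM, 0.16, 0.06, 0.00, -0.13 and -0.25. The high ratio of the lowest rows thus was absent by the mean of both libraries but present by the poly(A) Luc level. The filter on the mean of both libraries lets in a row low in the Luc library only where the Sfpq library is higher. Rows low in poly(A) Luc can be selected in the same way, so their high ratio was not read as a result. The low ratio of the most abundant rows was there in each of the 3 binnings.

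**Figure D2:**
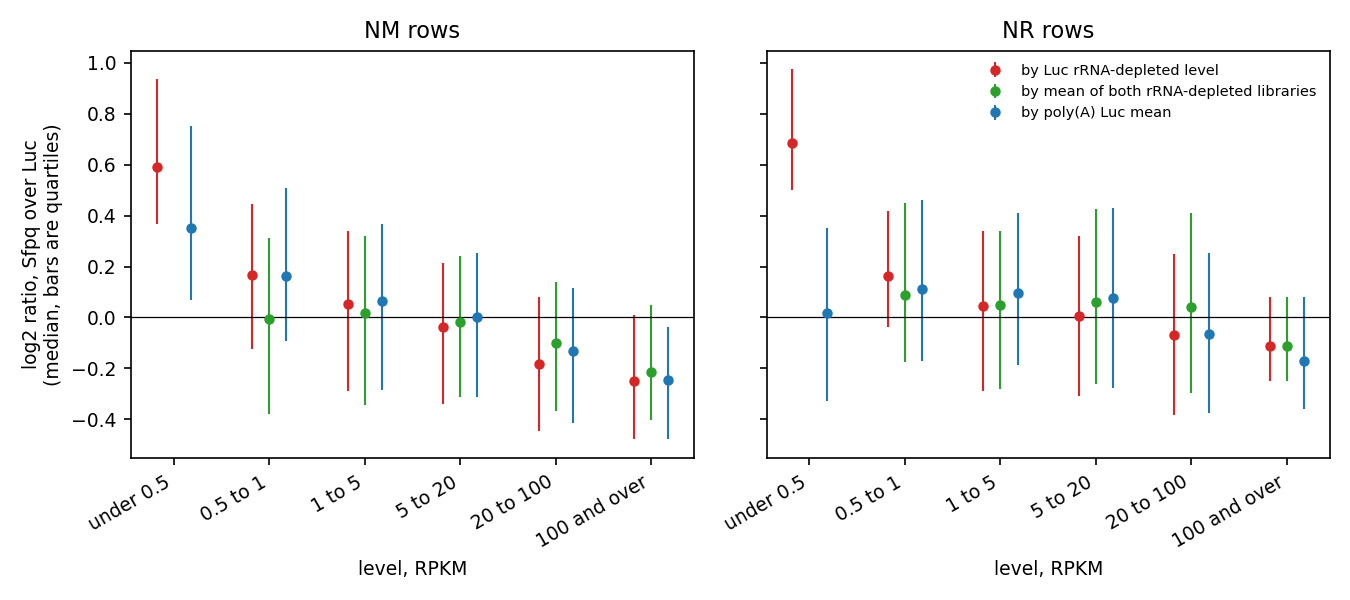
Points are median log2 ratios of Sfpq over Luc in rRNA-depleted RNA and bars run from the first to the last quartile, by level in RPKM, for NM rows on the left and NR rows on the right, with rows binned in 3 ways. In the bin of 100 RPKM and over the NM medians lie between -0.21 and -0.25 in all 3 binnings.

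NR rows were binned in the same ways. In bins of the Luc level their medians were 0.69 under 0.5 RPKM (29 rows), 0.16, 0.04, 0.00, -0.07 and -0.11 at 100 RPKM and over (17 rows). By the mean of both libraries the medians lay between 0.04 and 0.09 below 100 RPKM. By type, the 185 rows of long noncoding RNAs had a median of 0.18. Of these, 14 (7.57%) were higher and 2 (1.08%) lower, against 3.74% and 2.84% of all NR rows. Most of the higher rows were of genes whose introns hold snoRNAs: Snhg1, Snhg5, Snhg6, Snhg7, Snhg12, Snhg16 and Epb41l4aos. Gm10421 and Gm10791, at 0.130 and 0.142 RPKM in the Luc library, passed the filter only through the Sfpq library. The higher share was therefore not read as a trait of long noncoding RNAs. The 337 noncoding isoforms of coding genes had a median of 0.03, with 5 (1.48%) higher and 10 (2.97%) lower. The 118 transcribed pseudogenes had a median of -0.02, with 2 higher and 1 lower. The 53 miRNA rows had a median of -0.23, or 0.10 at a mean of at least 2 RPKM, with 7 higher and 8 lower, and the 17 snoRNA rows had a median of -0.11, with 1 higher and 0 lower.

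Rows poorly seen after poly(A) selection were defined as at least 4-fold higher in the mean of both rRNA-depleted libraries than in the mean of the 6 poly(A) libraries, with 0.5 RPKM added to each. The definition treats Luc and Sfpq alike. It took in 163 rows, 93 NM and 70 NR. Just inside the limit were Hbb-bh1 and Snord73a, at log2 differences of 2.01 and 2.01 between the RNA preparations, and just outside D1Pas1 and Gm6642, at 1.99 and 1.98. Of the 93 NM rows, 55 were on the list of replication-dependent histones. H2bu2, H4f16, H2aw and H4bc24 carry histone names too but were not on it, and stand among the other NM rows. Of the 70 NR rows, 31 were transcribed pseudogenes, 16 miRNA hairpins, 11 snoRNAs and 12 other RNAs.

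Most of these rows were within 2-fold of the Luc library. Among the 93 NM rows, 0 were higher and 4 lower, with a median log2 ratio of 0.07. The 4 were Hba-a1 and Hba-a2, Dpysl2 and G6pd2. Among the 70 NR rows, 3 were higher (Mir3064, Mir719 and 4632427E13Rik) and 2 lower (Mir30d and Gm5424), with a median of -0.12. The shares called, 0% and 4.30% of NM rows and 4.29% and 2.86% of NR rows, stand beside backgrounds of 1.42% and 5.42% for NM and 3.74% and 2.84% for NR rows. They depended on the pseudocount. With 0.1 RPKM in its place, 9.17% of the NR rows then in the class were higher and 10% lower, against 6.06% and 4.12% of all NR rows. Of the NM rows then in the class 8.65% were lower, against 6.79% of all NM rows.

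**Figure D3:**
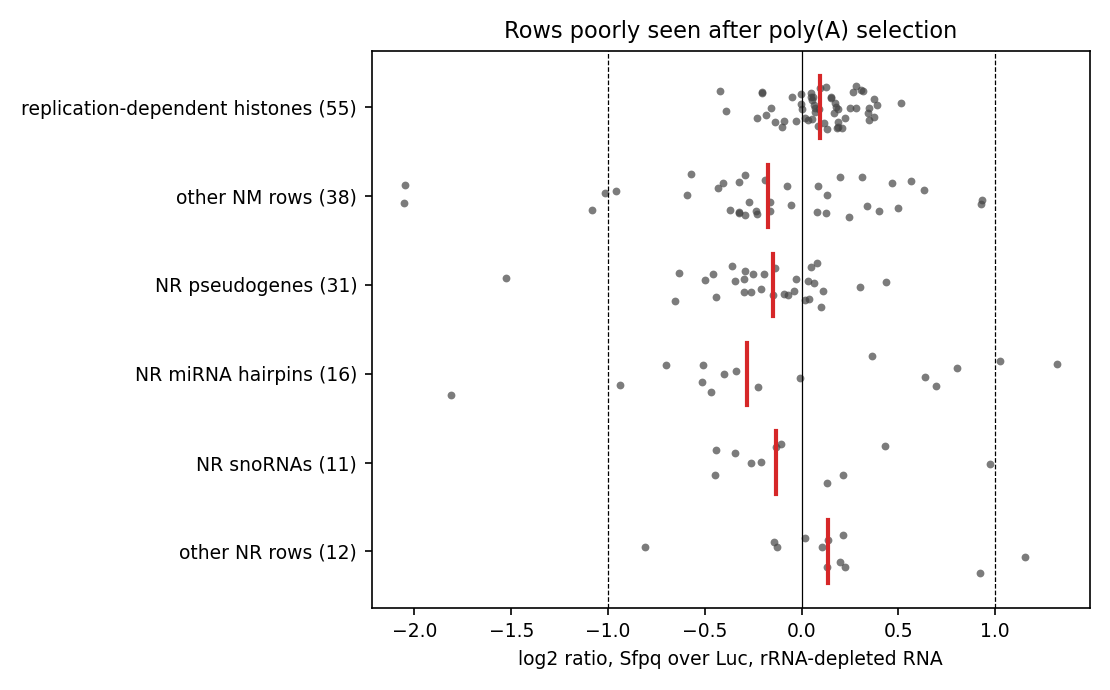
Each point is a row poorly seen after poly(A) selection, placed by its log2 ratio of Sfpq over Luc in rRNA-depleted RNA and grouped by kind of RNA, with the median as a red bar and 2-fold as dashed lines; points are spread vertically for visibility. The 55 rows of listed histones lie between -0.42 and 0.51, while the 16 miRNA rows spread from -1.81 to 1.32.

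Replication-dependent histone mRNAs, which supply the nucleosomes of newly copied DNA, were the largest coding group that poly(A) selection hid. Of 63 histone genes on the list, 58 passed the filter and 54 of these were poorly seen after poly(A) selection. Their median level was 156 RPKM in the rRNA-depleted Luc library and 2.84 RPKM in the poly(A) Luc mean. None passed 2-fold in either direction, 42 were above and 16 below zero, and the median log2 ratio was 0.12. The most abundant, H4c8, was at 1327 RPKM in the Luc and 1236 RPKM in the Sfpq library, and H4c17 was at 1321 and 1387 RPKM. H4c3 was at 239 and 342 RPKM, a log2 ratio of 0.51, and H2ac20, a low row, had the highest ratio of 0.78 at 1.29 and 2.56 RPKM.

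The histone families differed by less than the 2-fold limit. The 10 H3 genes had a median log2 ratio of 0.31, with 9 above zero, and their summed level was 680 RPKM in the Luc and 842 RPKM in the Sfpq library. The 12 H4 genes had a median of 0.16, with 10 above zero, and summed to 7860 and 8587 RPKM. The 16 H2b genes had a median of 0.14 with 15 above zero. The 15 H2a genes had a median of -0.09 with 6 above zero, and the 5 genes of linker histone H1 had a median of 0.00 with 2 above zero. Many histone genes of 1 family are near-identical in sequence, and how reads that match several of them were assigned is not given in the sources used here, so single histone genes are uncertain and the family sums are less so.

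H1f2, a linker histone gene, was the lowest of the histones and went the other way in poly(A) RNA. It was at 345 RPKM in the rRNA-depleted Luc and 257 RPKM in the Sfpq library, a log2 ratio of -0.42. In poly(A) RNA it was at 4.81, 4.22 and 3.05 RPKM in the 3 Luc libraries and 15.7, 13.0 and 10.4 RPKM in the 3 Sfpq libraries. All 3 Sfpq libraries thus lay above all Luc libraries there. Its poly(A) level was far below its level in rRNA-depleted RNA in every library. An opposite sign was not particular to H1f2. The listed histones had a median log2 ratio of 0.31 between poly(A) means. Of the 15 H2a genes, 14 were above zero there, against 6 in rRNA-depleted RNA. Replacement histones, which are made outside S phase and carry poly(A) tails, had a median of 0.16, with 0 of 11 past 2-fold; H2az2 was at 8.81 and 14.5 RPKM and H3f3b at 211 and 196 RPKM. Factors that process histone mRNA had a median of 0.05 over 10 genes, with 0 past 2-fold.

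The most abundant rows of the Luc library were Rmrp, Rpph1 and Rprl3, RNAs of the RNase MRP and RNase P kind. Rmrp, the RNA of RNase MRP that cleaves ribosomal RNA precursors, was at 75042 RPKM in the Luc and 42836 RPKM in the Sfpq library, a log2 ratio of -0.81, which is within 2-fold. Rpph1, the RNA of RNase P that trims the 5′ ends of tRNA precursors, was at 23270 and 21060 RPKM, a log2 ratio of -0.14. The RNase P RNA-like rows Rprl3, Rprl2 and Rprl1 were at 4518, 976 and 38.7 RPKM in the Luc and at 5268, 1129 and 42.5 RPKM in the Sfpq library. The 3 like rows were thus slightly higher where Rpph1 was slightly lower. In poly(A) Luc the mean was 29.98 ± 13.3 RPKM for Rmrp and 1.28 ± 0.560 RPKM for Rpph1 (SD, n = 3).

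Other small structural RNAs differed little. Terc, the RNA template of telomerase, was at 52.1 RPKM in the Luc and 57.4 RPKM in the Sfpq library. Rn4.5s, a small RNA of rodents, was at 149 and 171 RPKM, and Vaultrc5, a vault RNA, at 94.2 and 95.2 RPKM. None of the 5 genes of this list that passed the filter, Rmrp and Rpph1 among them, was past 2-fold.

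snoRNAs guide the chemical modification of ribosomal RNA and most are cut from introns of host genes. Of 69 C/D box snoRNAs, which guide methylation, 11 passed the filter and 42 were listed at 0 in both libraries; of 36 H/ACA box snoRNAs, which guide pseudouridylation, 5 passed and 21 were at 0. The snoRNA rows are therefore a small sample, and rows of such short RNAs depend on which fragment sizes a library keeps. Snord35a was at 31.7 RPKM in the Luc and 29.4 RPKM in the Sfpq library, and Snord43 at 29.7 and 25.6 RPKM. Their poly(A) Luc means were 0.912 and 0 RPKM. Snora16a was at 15.9 and 11.6 RPKM, Snora52 at 6.43 and 4.07 RPKM and Snora78 at 11.1 and 15.1 RPKM. Snord95 was the row that passed 2-fold, at 0.230 and 1.60 RPKM. With a Luc level under 0.5 RPKM it passed the filter only through the Sfpq library, so its ratio was not read as a result.

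The snoRNA host genes on the list used, noncoding except for Taf1d, were higher in the Sfpq library. Hosts of the detected snoRNAs by position, mostly ribosomal protein genes, had a median of 0.01 and are given below. Of the 19 host genes on the list, 13 passed the filter and all 13 were above zero. Of these, 8 (61.5%) were higher by 2-fold, against 1.64% of all genes, and 0 lower. The median log2 ratio was 1.18, or 0.64 with no filter. This list was chosen with these libraries known, so its count is not independent evidence. Epb41l4aos was at 12.5 RPKM in the Luc and 47.1 RPKM in the Sfpq library, Snhg1 at 11.8 and 35.7 RPKM, Snhg12 at 25.5 and 67.2 RPKM, and Snhg5 at 32.1 and 74.9 RPKM. Snhg6, Snhg16, Snhg7 and Taf1d were the others past 2-fold. Their RNAs are spliced, tailed and held down by nonsense-mediated decay in many cells. In poly(A) RNA the same genes had a median log2 ratio of 1.22, and Snhg12 was at 70.9 ± 24.8 RPKM in Luc and 188 ± 5.68 RPKM in Sfpq (SD, n = 3).

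**Figure D4:**
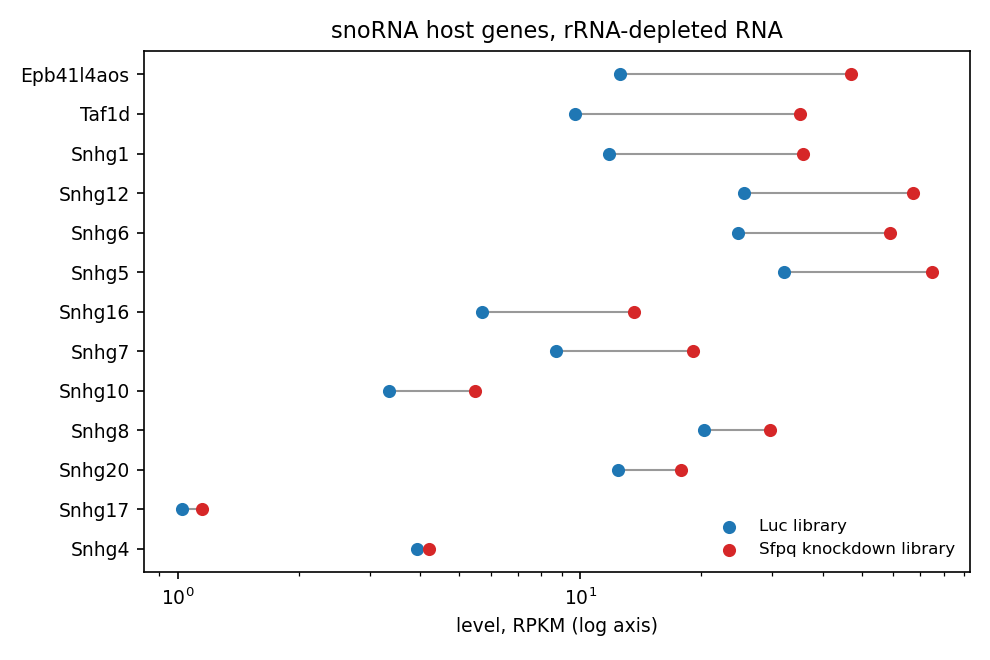
Each line joins the RPKM of a snoRNA host gene in the control (Luc, blue) and knockdown (Sfpq, red) library of rRNA-depleted RNA, on a log axis, ordered by log2 ratio. All 13 red points lie to the right of the blue ones, from Snhg4 at 3.92 and 4.21 RPKM to Epb41l4aos at 12.5 and 47.1 RPKM.

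Only 3 snoRNA rows lay inside noncoding hosts that passed the filter, and each was below zero and within 2-fold. Snora16a lies within Snhg12, whose log2 ratio was 1.38, and had a log2 ratio of -0.44. Snora24 lies within Snhg8, at 0.53, and had a ratio of -0.35. Snora74a lies within Snhg4, at 0.09, and had a ratio of -0.45. Of the 14 snoRNA rows with a host that passed the filter, by position in the gene table, 4 had the sign of their host, and the medians were -0.17 for the snoRNAs and 0.01 for the hosts, most of which code for ribosomal proteins such as Rpl3 and Rps3.

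The start sites of 4 listed host genes are shown because many snoRNA hosts and ribosomal protein genes begin transcription in a run of pyrimidines. The listed hosts past the filter were all above zero. Cytosolic ribosomal protein genes were not, with a median log2 ratio of -0.03 and 0 of 82 higher by 2-fold. Of 13 host genes past the filter, 10 matched a RefSeq start window (GRCm38.p6). A run of at least 5 bases of C or T that includes the first transcribed base was present in 4 of the 10, against 11.8% of 27025 genes with a window. Each sequence gives 30 bases before and 30 bases from the start on the gene's strand, with that run in capitals.
Snhg12 (chr4:132308648-132308707, + strand): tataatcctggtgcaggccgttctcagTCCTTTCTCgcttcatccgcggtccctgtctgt
Snhg7 (chr2:26640215-26640274, - strand): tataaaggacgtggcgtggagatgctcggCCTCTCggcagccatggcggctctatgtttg
Snhg8 (chr3:123508307-123508366, - strand): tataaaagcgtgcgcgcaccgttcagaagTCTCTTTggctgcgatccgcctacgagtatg
Snhg17 (chr2:158361480-158361539, - strand): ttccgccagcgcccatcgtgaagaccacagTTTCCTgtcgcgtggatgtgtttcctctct
Their log2 ratios were 1.38 for Snhg12, 1.09 for Snhg7, 0.53 for Snhg8 and 0.12 for Snhg17. Taf1d and Snhg5, with ratios of 1.81 and 1.21, had no such run in the window used, so the run did not sort the host genes by ratio.

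A few host genes were seen only after poly(A) selection. The 2 rows of 1110038B12Rik were at 0 RPKM in the Luc and under 0.1 RPKM in the Sfpq library of rRNA-depleted RNA, and the higher of them was at 112 ± 4.28 RPKM in poly(A) Luc and 560 ± 11.7 RPKM in poly(A) Sfpq (SD, n = 3). Snhg3 and Snhg15 were likewise at or near 0. Of NM rows with at least 5 RPKM in the poly(A) mean, 15 of 10767 (0.139%) were under 0.5 RPKM in rRNA-depleted RNA, and of NR rows 27 of 398 (6.78%). A value of 0 for an RNA of that abundance can be a failed estimate, and these rows were not read as absent. How the submitters counted reads that overlap more than 1 record is not given in the sources used here.

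miRNA rows count reads over the hairpin precursor, the stem-loop from which the mature miRNA of about 22 bases is cut, and 53 passed the filter. For 41 of these RefSeq gives the hairpin length, and RPKM times length gave a whole number of reads within 0.1 in all 41. The median was 12 reads over both libraries together. Counting error alone is therefore wide for most miRNA rows: Mir23b held 9 reads in the Luc library and 2 in the Sfpq one, a fold of 0.221 with an exact 95% interval of 0.0232 to 1.07, and Mirlet7i held 1 and 6 reads, a fold of 5.97 with an interval of 0.724 to 274. These intervals are conditional binomial ones that treat reads as independent and cover counting error only. Of the 11 rows past 2-fold with a known length, 8 had fewer than 50 reads in all.

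Shown are Mir682 and Mir703, which held the most reads, and Mir719, Mir3064 and Mir546, the rows past 2-fold with at least 50 reads. These were chosen after their values were seen. The hairpins are the sequences over which reads were counted (RefSeq, GRCm38.p6), with the mature part in capitals.
Mir703 (chr5:98475556-98475664, - strand): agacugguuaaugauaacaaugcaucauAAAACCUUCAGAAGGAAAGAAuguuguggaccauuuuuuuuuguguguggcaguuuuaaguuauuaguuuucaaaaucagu
Mir719 (chr14:60228806-60228915, - strand): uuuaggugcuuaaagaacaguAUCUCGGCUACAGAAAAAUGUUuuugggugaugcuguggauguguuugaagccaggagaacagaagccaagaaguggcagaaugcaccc
Mir3064 (chr11:106782693-106782759, - strand): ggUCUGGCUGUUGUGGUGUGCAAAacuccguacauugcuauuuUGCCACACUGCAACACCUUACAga
Mir682 (chr13:75645046-75645141, + strand): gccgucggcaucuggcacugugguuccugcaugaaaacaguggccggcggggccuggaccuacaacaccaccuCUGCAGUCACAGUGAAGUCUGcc
Mir546 (chr10:126998440-126998560, + strand): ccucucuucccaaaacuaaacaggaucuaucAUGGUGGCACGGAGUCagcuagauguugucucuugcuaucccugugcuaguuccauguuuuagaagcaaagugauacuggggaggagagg
The mature sequences, with the seed (bases 2 to 8, which pairs with targets) in capitals, share no seed among these miRNAs.
miR-703: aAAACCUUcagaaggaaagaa
miR-719: aUCUCGGCuacagaaaaauguu
miR-3064-5p: uCUGGCUGuuguggugugcaaa
miR-3064-3p: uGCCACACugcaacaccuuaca
miR-682: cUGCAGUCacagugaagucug
miR-546: aUGGUGGCacggaguc

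Since the ratio chose 3 of these 5 hairpins, their values are a description. Mir719 held 23 reads in the Luc library and 63 in the Sfpq one, at 3.28 and 8.92 RPKM, a fold of 2.72 with an exact 95% interval of 1.67 to 4.602. Mir3064 held 36 and 76 reads, at 8.42 and 17.7 RPKM, a fold of 2.10 with an interval of 1.39 to 3.21. Mir546 held 61 and 129 reads, a fold of 2.10 with an interval of 1.54 to 2.90. Mir703 held 177 and 313 reads, at 25.4 and 44.7 RPKM, a fold of 1.76 with an interval of 1.46 to 2.13. Mir682 held 395 and 313 reads, at 64.5 and 50.8 RPKM, a fold of 0.788 with an interval of 0.677 to 0.916. The intervals compare these 2 libraries and not the treatments.

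Reads over a hairpin inside a gene cannot be told apart from reads of that gene's RNA. The same holds where a hairpin matches the sequence of a gene elsewhere. The printed Mir682 sequence reads as codons without a stop, and whether its reads came from a coding gene was not tested. Mir546 lies within Ctdsp2, which was at 11.0 RPKM in the Luc and 19.02 RPKM in the Sfpq library, a log2 ratio of 0.77 beside 1.03 for the hairpin. Mir3064 lies within Ddx5, an RNA helicase gene, at 100.3 and 112.8 RPKM, a log2 ratio of 0.17 beside 1.03. Mir719 lies within Nupl1, a nucleoporin gene, at 13.2 and 17.9 RPKM, a log2 ratio of 0.43 beside 1.32. Of 31 miRNA rows with a host that passed the filter, 19 had the sign of their host. The abundant Mir703 varied widely even among poly(A) libraries of 1 group, at 3.03, 1.66 and 16.8 RPKM in the 3 Luc libraries.

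Some well-known miRNAs were lower at few reads, and others were higher. Of the 53 miRNA rows, 32 were below and 21 above zero. Mir23a was at 0.418 RPKM in the Luc and 1.04 RPKM in the Sfpq library, and Mirlet7i at 0.184 and 1.10 RPKM. Mir30d was at 5.92 RPKM in the Luc and 1.33 RPKM in the Sfpq library, the lowest log2 ratio of the miRNA rows at -1.81. The clustered Mir23b, Mir27b and Mir24-1 were at 1.91, 1.07 and 1.15 RPKM in the Luc and at 0.421, 0 and 0.458 RPKM in the Sfpq library, each at 9 reads or fewer per library. Mir3082 held 0 reads in the Luc library and 11 in the Sfpq one, or 2.68 RPKM in the Sfpq library.

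Retrocopies and pseudogenes made up much of the rest of the poorly seen class. A retrocopy is an intronless copy of a parent mRNA elsewhere in the genome, and reads of the parent can be placed on it. For 16 copies of the class with a known parent gene, the class fixed that every copy was above its poly(A) level. The parents, which the class did not choose, were each below their own. Several coding lists were below theirs too. The median log2 difference between the RNA preparations was -0.67 for cell cycle and -1.30 for oxidative phosphorylation genes, but 0.00 for long neuronal genes. A level below poly(A) alone therefore does not mark a gene as a parent. Rplp2-ps1 was at 927 RPKM in the rRNA-depleted Luc library and at 114 RPKM in the poly(A) Luc mean, while its parent Rplp2, a protein of the ribosomal stalk, was at 161 and 2653 RPKM. Rps19-ps3 was at 184 and 7.07 RPKM and its parent Rps19 at 55.4 and 1671 RPKM. The copy exceeded its parent in the rRNA-depleted Luc library in 6 of the 16 pairs.

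The Sfpq ratios of copies were set beside those of their parents. Ratios were small in general, with a median absolute log2 ratio of 0.29 over all NM rows. No unrelated pairs were compared, so whether copies stayed closer to their parents than to other genes cannot be judged. The median absolute difference between the log2 ratio of a copy and that of its parent was 0.12 over the 16 pairs, the largest was 0.54, and 12 pairs had the same sign. G6pd2, 1 of the 4 poorly seen NM rows lower by 2-fold, was at 14.1 RPKM in the Luc and 6.71 RPKM in the Sfpq library, a log2 ratio of -1.01. Its parent G6pdx, the first enzyme of the pentose phosphate pathway, was at 39.2 and 20.6 RPKM, a log2 ratio of -0.91. Gm5424, 1 of the 2 NR rows lower by 2-fold, had a log2 ratio of -1.53, at 24.2 and 8.08 RPKM, and Ass1, the argininosuccinate synthase gene of which it is a copy, had a ratio of -1.45, at 5.68 and 1.77 RPKM. Prdx6b, at 3.14 and 5.15 RPKM, had a ratio of 0.63 beside 1.02 for its parent Prdx6, a peroxiredoxin. Reads of a copy and its parent cannot be told apart here, so the copies' ratios are reported as uncertain.

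A few other genes of the class were coding genes that are not histones. Dpysl2, a protein of growing axons, was at 46.3 RPKM in the Luc and 21.6 RPKM in the Sfpq library, a log2 ratio of -1.08. Ahnak, a very large scaffold protein encoded mostly by 1 exon, had 3 rows in the class, 2 coding and 1 noncoding, at 6.96, 6.404 and 6.10 RPKM in the Luc and at 13.7, 12.6 and 12.02 RPKM in the Sfpq library, with log2 ratios of 0.92 to 0.93. Another row of the gene, NM_009643, lay just outside the class and was past 2-fold, at 18.5 and 39.2 RPKM. Trim71, a stem cell regulator of mRNA translation, was at 5.82 and 8.43 RPKM. The long noncoding RNA 4632427E13Rik was at 1.45 and 3.84 RPKM, a log2 ratio of 1.15.

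Alpha globin rows were the lowest of the class. Hba-a1 was at 13.6 RPKM in the Luc and 2.90 RPKM in the Sfpq library, a log2 ratio of -2.05, and Hba-a2 at 13.5 and 2.88 RPKM. These 2 genes are near-identical copies and count as 1 observation. In poly(A) RNA Hba-a1 was under 0.3 RPKM in each of the 6 libraries. The beta-like row Hbb-bh1 was at 2.16 RPKM in the Luc and 0.868 RPKM in the Sfpq library, and 0 in the poly(A) means, and Hbb-b1 was at 1.09 and 0.0988 RPKM. Whether globin RNA came from the cells or from another RNA source was not tested.

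Rows past 2-fold were also followed in poly(A) RNA. The 2 comparisons share no library, though whether both kinds of library came from the same cultures is not stated. Of the 841 NM rows lower in rRNA-depleted RNA, 675 were also lower by 2-fold in the ratio of poly(A) means, which is 80.3% of the 841 and 87.0% of the 776 lower in poly(A). Of the 221 higher NM rows, 171 were higher in both, 77.4% of the 221 and 54.98% of the 311 in poly(A). Among NR rows, 18 of 29 higher rows and 11 of 22 lower rows were past 2-fold the same way. Across rows, Pearson's r between the 2 log2 ratios was 0.94 for NM rows, 0.75 for NR rows and 0.25 for the 163 poorly seen rows. Rows are not independent replicates, and the last group was chosen to be near the floor in poly(A) RNA.

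**Figure D5:**
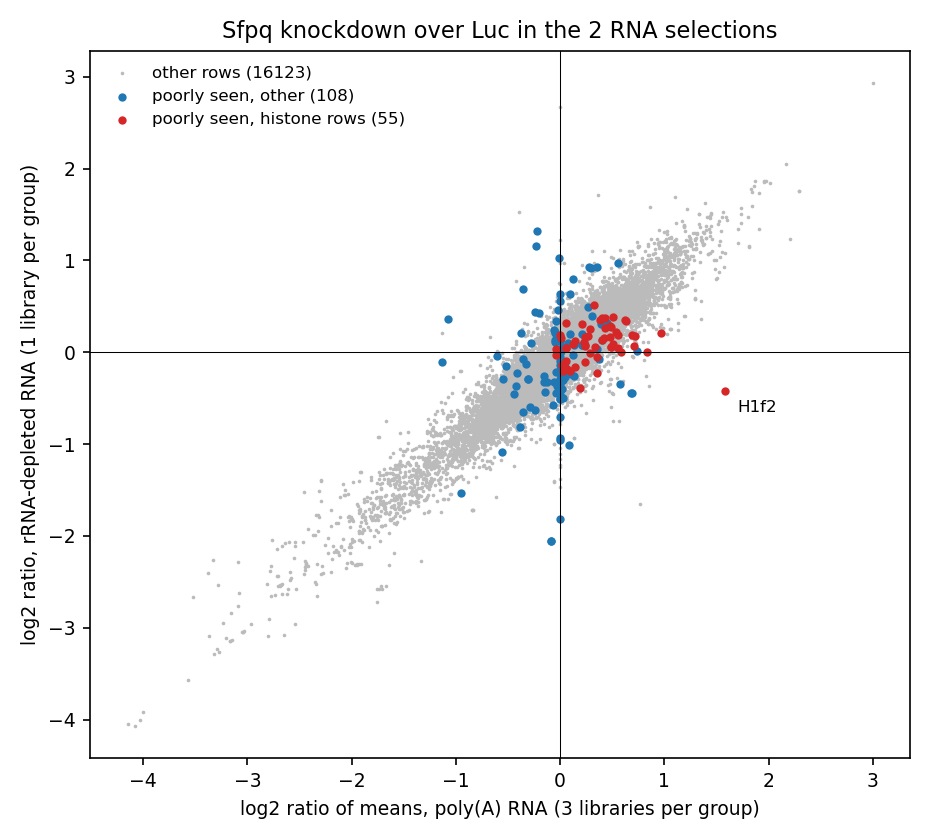
Each point is a RefSeq row, with the log2 ratio of Sfpq over Luc from poly(A) means (3 libraries per group) on the horizontal and from rRNA-depleted RNA (1 library per group) on the vertical axis. Grey rows follow the diagonal and blue marks the other poorly seen rows. The 55 poorly seen rows of listed histones, in red, stay between -0.42 and 0.51 on the vertical axis. H1f2 lies apart at 1.58 and -0.42.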

How the data were processed

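Total RNA depleted of ribosomal RNA, and poly(A)-selected RNA, was sequenced on the Ion Proton System, per the labels' protocols. The authors deposited RPKM per RefSeq row, per the file headers. The build mm9 and TopHat2 2.0.10 are named, per the submitters' processing notes. Which program made the RPKM values, how it placed reads with more than 1 match and whether it used strand is not given in the sources used here. Symbols came from a RefSeq gene table of GRCm38.p6, which named 98.5% of rows and served for names and neighbours only; printed sequences are from RefSeq GRCm38.p6.

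Ratios used a pseudocount of 0.5 RPKM and rows with a mean of at least 0.5 RPKM. No test was run, since each group has 1 library. The ratio and counting steps recovered known changes when tested on simulated data. Lists use 1 row per gene, the row with the highest mean. Named were all Sfpq rows, Nono, Pspc1, Neat1 and Malat1, the 10 NM and 8 NR rows and the 5 poorly seen rows with the largest ratios each way at a mean of at least 5 RPKM, and per list the 3 largest ratios at a mean of at least 1 RPKM and the 2 most abundant genes; not all are printed, and other names were chosen after their values were seen. Members and lists were chosen with earlier results of these data known. Hairpin lengths came from RefSeq. The 16 pairs of copies and parents were written by hand from gene names after the class was seen. Alternatives were other pseudocounts, filters, scaling, rows per gene and limits of the poorly seen class. Scripts ran in Python 3.11.15 (pandas 2.3.3, numpy 2.4.6, matplotlib 3.10.9).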

Additional observations from a re-analysis of the deposited data

Results flagged for a closer look

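H1f2, a linker histone gene, moved in opposite directions in the 2 RNA preparations. In rRNA-depleted RNA it was at 345 RPKM in the Luc and 257 RPKM in the Sfpq library, a log2 ratio of -0.42, which is within 2-fold and rests on 1 library per group. In poly(A) RNA all 3 Sfpq libraries lay above all 3 Luc libraries, at 13.0 ± 2.62 against 4.03 ± 0.895 RPKM (SD, n = 3). Other listed histones also differed in sign: H2ac15 was at -0.39 in rRNA-depleted RNA and at 0.19 in the ratio of poly(A) means. The difference between the preparations was not tested.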

How the results depend on the processing

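No paired analysis was possible because each rRNA-depleted group has 1 library and no result comes from a test. For the same reason no library could be left out. The medians of NM, NR and poorly seen rows moved by less than 0.1 log2 units under every alternative tried. Counts past 2-fold depended on the pseudocount. With 0.1 RPKM, 372 NM rows were higher, 47 NR rows were higher, and of poorly seen rows 1 NM and 11 NR were higher and 9 NM and 12 NR lower. With 1 RPKM, 122 NM rows, 16 NR rows and 1 poorly seen NR row were higher. With a mean of at least 2 RPKM, 14 NR rows were lower. Median-ratio scaling shifted ratios by 0.04 log2 units, and 1 poorly seen NM row was then higher. With a limit of 2-fold above poly(A), 2 NM and 8 NR poorly seen rows were higher and 16 NM and 8 NR lower; with 8-fold, 1 NR row was higher. List medians moved by more than 0.1 log2 units in 17 of the 124 list and setting pairs. Of 129 named rows, 6 changed their side of 2-fold under some setting (Snord15a, Acta2, Rprd1b, G6pd2, Mir3064 and Oas1b) and 0 of those past 2-fold changed sign; Sympk, within 2-fold, went from -0.02 to 0.03 with median-ratio scaling. Depth limits the miRNA and snoRNA rows most, where 1 RPKM over 80 bases is about 5.11 reads.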

Other observations

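Cytosolic ribosomal protein genes stood apart in level rather than in ratio. Of 85, 82 passed the filter, and their median log2 difference between rRNA-depleted and poly(A) RNA was -3.02, while the median log2 ratio of Sfpq over Luc was -0.03 with 46 of 82 below zero. The share lower by 2-fold was 2.44%, against 5.18% of all genes. The 2 lower were Rpl9, at 37.4 RPKM in the Luc and 13.2 RPKM in the Sfpq library, and Rpl7, at 410 and 162 RPKM. In poly(A) RNA Rpl9 was at 1810.4 ± 82.4 RPKM in Luc and 603 ± 20.1 RPKM in Sfpq, and Rpl7 at 1660.4 ± 165 and 680.03 ± 124 RPKM (SD, n = 3). Rpl15 was at 31.3 and 15.8 RPKM in rRNA-depleted RNA, a log2 ratio of -0.97.
Among the long noncoding RNAs that were not snoRNA hosts, 1110002L01Rik was at 5.41 RPKM in the Luc and 0.807 RPKM in the Sfpq library, a log2 ratio of -2.18, and at 8.40 and 1.54 RPKM in the poly(A) means. B230209E15Rik was at 4.52 and 1.86 RPKM, a log2 ratio of -1.09. Both were chosen after their values were seen.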
